A study of Mus musculus with 20 samples.

Results

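The 9 genes described here, Ifit1, Ifit2, Ifit3, Isg15, Irf7, Irf9, Stat2, Bst2 and Oasl2, are genes of the interferon system, and were taken by gene symbol from a count table of 29671 genes in mouse amygdala. All 9 had a row and all 9 passed the filter on low counts, which left 16727 genes for testing. The amygdala, a brain region that handles threat, was punched on both sides from behaviourally naive male C57B6 mice, bred in house from Taconic stock, at postnatal day 84. The 20 mice formed 4 groups of 5: F2 mice of a stress lineage, F2 mice of a no-stress lineage, F1 mice of a stress lineage and F1 mice of a no-stress lineage. Stress lineage means descent from mice put through chronic unpredictable stress, placed in adolescence by the series title, and the sampled mice themselves are not described as stressed. The title asks whether such stress leaves a trace in the amygdala of later generations.

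Type I interferons are secreted proteins that cells release after sensing viral nucleic acid. They bind a receptor made of Ifnar1 and Ifnar2, whose attached kinases Jak1 and Tyk2 phosphorylate the transcription factor Stat2. Stat2 and Irf9 then act together in the complex ISGF3, which binds a promoter element called the interferon-stimulated response element (ISRE) and switches on antiviral genes. In brain, microglia, endothelial cells, astrocytes and neurons can all respond, and a low basal level is found without infection.

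The promoters of the members differed in whether they held the core of that element. In the 250 bases before the annotated transcription starts of RefSeq (GRCm38.p6), the letters GAAANNGAAA, or TTTCNNTTTC on the other strand, were found in 5 of the 9 members, Ifit1, Ifit3, Isg15, Stat2 and Bst2. Of all genes with such a window, 936 of 27025, or 3.46%, held the same letters. Ifit1 and Ifit3 each held 2 separate matches with the same bases, TTTCACTTTC and TTTCAGTTTC, at 95 to 104 and 76 to 85 bases before the start of Ifit1 and at 147 to 156 and 113 to 122 bases before that of Ifit3. Isg15 held 3 matches that overlap each other within 57 to 78 bases before its start, Bst2 held 2 overlapping matches within 115 to 130 bases, and Stat2 held 1 match, TTTCAGTTTC, at 213 to 222 bases. None was found in the windows of Ifit2 (2 starts), Irf7, Irf9 (2 starts) and Oasl2, which says only that these letters were not in these windows. A second motif, the gamma-activated site TTCNNNGAA, which reads the same on both strands, occurred in 1 window of Ifit2 and in that of Bst2, where it overlaps an ISRE core match by some bases, and 8.13% of all genes held it. The windows of Ifit1 (chr19:34640639-34640888, plus strand), Ifit3 (chr19:34583279-34583528, plus strand), Isg15 (chr4:156200819-156201068, minus strand) and Bst2 (chr8:71537473-71537722, minus strand) are printed because they hold more than 1 match. That of Ifit2 (chr19:34550444-34550693, plus strand) is printed because Ifit2 is the member the lineage result turns on. All run 5′ to 3′ on the strand of the gene, with ISRE core matches in capitals.
Ifit1: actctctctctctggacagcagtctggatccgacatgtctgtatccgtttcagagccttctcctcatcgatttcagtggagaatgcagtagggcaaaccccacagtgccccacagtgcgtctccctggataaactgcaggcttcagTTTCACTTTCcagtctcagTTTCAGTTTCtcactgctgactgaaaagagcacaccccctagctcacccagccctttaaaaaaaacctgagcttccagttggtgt
Ifit3: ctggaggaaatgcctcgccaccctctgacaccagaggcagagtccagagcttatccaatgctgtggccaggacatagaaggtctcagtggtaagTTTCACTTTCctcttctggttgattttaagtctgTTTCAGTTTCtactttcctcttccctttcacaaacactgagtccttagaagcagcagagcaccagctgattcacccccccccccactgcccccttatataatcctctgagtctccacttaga
Isg15: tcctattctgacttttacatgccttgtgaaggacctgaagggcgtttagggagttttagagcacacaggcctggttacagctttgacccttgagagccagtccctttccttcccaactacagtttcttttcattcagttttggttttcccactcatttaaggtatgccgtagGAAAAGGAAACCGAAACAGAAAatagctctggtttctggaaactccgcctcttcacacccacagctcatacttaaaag
Bst2: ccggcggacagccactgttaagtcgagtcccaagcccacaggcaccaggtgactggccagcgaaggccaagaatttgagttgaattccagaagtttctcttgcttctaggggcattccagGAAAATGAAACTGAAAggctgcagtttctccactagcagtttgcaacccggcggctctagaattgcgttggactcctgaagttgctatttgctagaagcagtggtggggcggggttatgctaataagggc
Ifit2: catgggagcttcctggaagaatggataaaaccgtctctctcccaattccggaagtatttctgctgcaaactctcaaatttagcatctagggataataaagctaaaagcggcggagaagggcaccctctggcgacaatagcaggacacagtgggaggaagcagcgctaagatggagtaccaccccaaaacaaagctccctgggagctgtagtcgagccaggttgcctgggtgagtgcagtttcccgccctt

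**Figure D1:**
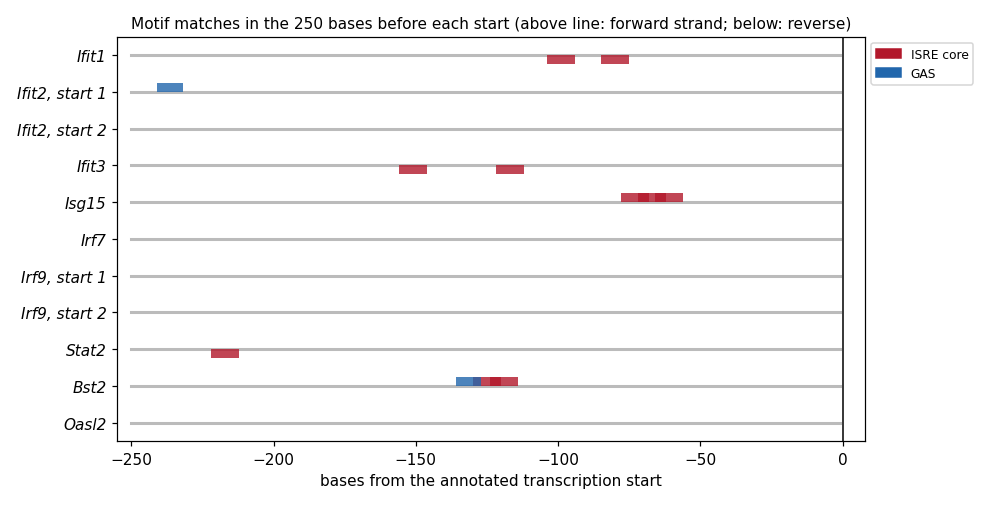
Matches of the ISRE core and of the gamma-activated site (GAS) in the 250 bases before each annotated start, with distance from the start in bases on the x axis. Isg15 and Bst2 have overlapping ISRE core matches, and 4 of the 9 genes have no ISRE core match.

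The members lie on 7 chromosomes in GRCm38 (GENCODE M21), and all are protein-coding. Ifit2 (ENSMUSG00000045932, 34550694 to 34576419), Ifit3 (ENSMUSG00000074896, 34583531 to 34588731) and Ifit1 (ENSMUSG00000034459, 34640871 to 34650009) share a cluster on the plus strand of chromosome 19, with the related genes Ifit1bl1, Ifit3b and Ifit1bl2 between Ifit3 and Ifit1. Ifit3 and Ifit3b are close copies, so their counts are uncertain where reads could come from either, and Ifit3b had a Pearson r of 0.73 with Ifit3 over the 20 libraries. Isg15 (ENSMUSG00000035692) lies on chromosome 4 at 156199424 to 156200818, Bst2 (ENSMUSG00000046718) on chromosome 8 at 71534255 to 71537456, Oasl2 (ENSMUSG00000029561) on chromosome 5 at 114896936 to 114912234 and Stat2 (ENSMUSG00000040033) on chromosome 10 at 128270559 to 128292849. Irf7 (ENSMUSG00000025498, chromosome 7, 141262706 to 141266481) overlaps Phrf1 on the opposite strand, and Irf9 (ENSMUSG00000002325, chromosome 14, 55603571 to 55610030) overlaps Rnf31 on the same strand. The strand setting of the counting is not given in the sources used here, so reads of such neighbours may not be separated. Phrf1 (mean 43.7 CPM, counts scaled to a common library size) and Rnf31 (21.1 CPM) were far higher than Irf7 and Irf9, with r of -0.33 and -0.14 to them.

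All members were detected in all 20 libraries, at low to middling levels. The libraries held 13654890 to 13714805 counts each, totals that had been brought nearly level before deposit. The mean level over the 20 libraries ranged from 0.739 ± 0.330 CPM for Isg15, at the 3.48th percentile of the tested genes, to 24.4 ± 2.78 CPM for Stat2 (SD), at the 57.3rd percentile. In counts, Isg15 had 2 to 19 per library, Bst2 8 to 31, Irf7 9 to 26, Ifit1 10 to 46, Oasl2 22 to 75, Ifit2 71 to 138, Ifit3 71 to 155, Irf9 96 to 195 and Stat2 267 to 397. Divided by the length of the longest transcript, the level was highest for Stat2, at 5.54 ± 0.633 CPM per kilobase, and Ifit3, at 4.53 ± 0.987. Irf9 (2.47), Ifit2 (1.94), Bst2 (1.48), Oasl2 (1.06), Isg15 (0.977), Ifit1 (0.750) and Irf7 (0.371) followed on the same CPM per kilobase scale. On this scale Ifit3 exceeded Irf9, and Ifit1 exceeded Irf7, in all 20 libraries. Each other neighbour in this order was above the next in 12 to 17 of 20 libraries, so the order between them did not hold in every mouse. Before the division Irf9 averaged 9.6 CPM and Ifit3 7.9 CPM, so their order depends on the transcript length used. Cells in the punch that carry a gene and the RNA per cell cannot be told apart in such bulk tissue.

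Pooled over the 4 groups, the spread between mice of a group was larger than counting error for each member, though in 6 of the 36 single groups of a member it was smaller. The pooled coefficient of variation within groups was 47.7% for Isg15, where counting error alone is 31.5%, 45.5% for Bst2 against 25.0%, and 33.6% for Ifit1 against 19.2%. It was 9.28% for Stat2 against 5.48%. The members with few counts therefore carry wide errors in each comparison below.

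**Figure D2:**
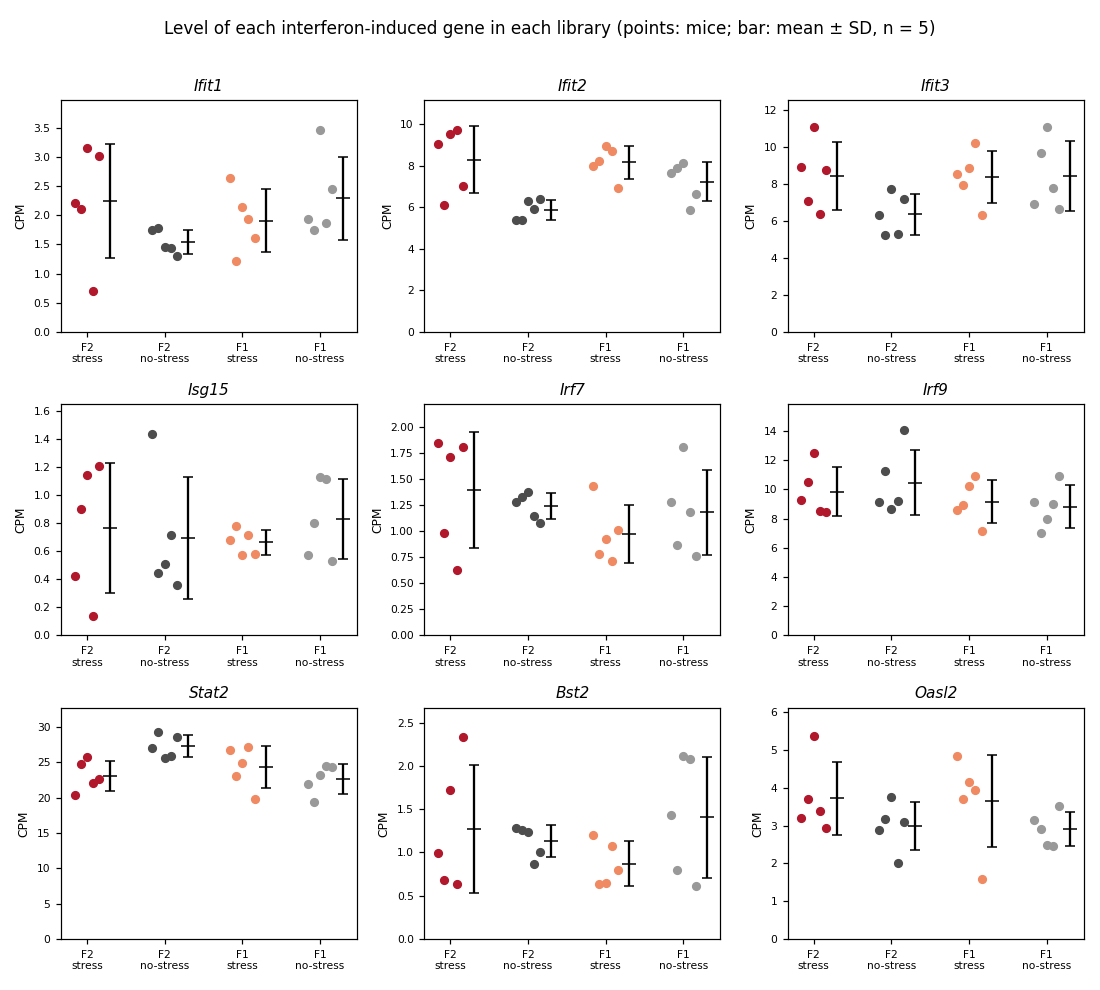
CPM of each of the 9 genes in each of the 20 libraries, with 1 point per mouse and the mean ± SD of 5 mice beside each group. For Ifit2, 4 of 5 F2 stress-lineage mice lie above all F2 no-stress mice, and for the other genes the F2 groups also overlap.

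In the F2 generation, Ifit2 was higher in the stress lineage than in the no-stress lineage, and it was the single member to pass the test. Ifit2 encodes an interferon-induced RNA-binding protein that restricts some neurotropic viruses in mouse brain. Its level was 9.05, 6.11, 9.53, 9.70 and 7.02 CPM in the 5 F2 stress-lineage mice (replicates 11 to 15), against 5.37, 5.40, 6.30, 5.90 and 6.41 CPM in the 5 F2 no-stress mice (replicates 16 to 20). Only replicate 12 of the stress lineage fell within the range of the no-stress mice. The means were 8.28 ± 1.62 CPM and 5.88 ± 0.487 CPM (SD, n = 5 each), a log2 fold change of 0.49 ± 0.13 (SE, edgeR quasi-likelihood adjusted p = 0.0295). Calls of this kind were not rare, since 2.64% of all tested genes were higher in F2 stress-lineage mice and 5.28% lower at the same threshold, 7.92% in either direction. The F2 groups also differed in base composition. With each gene's log2 CPM set relative to its mean over the 20 libraries, the median of genes in the highest decile of GC content minus that of genes in the lowest was -0.30, -0.38, -0.40, -0.10 and 0.21 in the F2 stress libraries, against 0.61, 0.44, 0.48, 0.27 and -0.10 in the F2 no-stress libraries. The call was lost when any of F2 stress replicates 11 and 13 or F2 no-stress replicates 16 and 17 was left out, with edgeR adjusted p of 0.0788 to 0.0881. It was also lost when trends over GC content and transcript length were removed library by library (log2 fold change 0.36, adjusted p = 0.201), when 8 genes in place of 1324 were called in all, and with no low-count filter (adjusted p = 0.0557) or only the F2 groups in the fit (adjusted p = 0.125, 0 genes called in all). The longest Ifit2 transcript has 42.0% GC, where the median tested gene has 49.4%. With the level of microglial markers as a covariate the fold change was 0.47 and the call held (edgeR adjusted p = 0.0266).

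The other Ifit genes had fold changes of the same sign that did not pass. Ifit3, whose protein joins other Ifit proteins in complexes on RNA, was at 8.90, 7.09, 11.1, 6.39 and 8.75 CPM in F2 stress-lineage mice, against 6.35, 5.25, 7.75, 5.33 and 7.20 CPM in F2 no-stress mice. The groups overlapped, and the log2 fold change of 0.41 ± 0.18 had an edgeR adjusted p of 0.151. With the GC and length trends removed it was 0.33 (edgeR adjusted p = 0.354). Ifit1, which binds RNA whose cap lacks the methylation of host messenger RNA and blocks its translation, was at 2.21, 2.11, 3.15, 0.703 and 3.02 CPM in F2 stress-lineage mice, against 1.74, 1.77, 1.45, 1.44 and 1.30 CPM in F2 no-stress mice. In the F2 stress lineage 4 mice lay above all 5 no-stress mice and replicate 14 lay below them all, and the log2 fold change was 0.54 ± 0.30 (edgeR adjusted p = 0.276). With the GC and length trends removed and all 20 libraries kept it was 0.39 (edgeR adjusted p = 0.555). In the main fit without replicate 14 the Ifit1 log2 fold change was 0.77 and passed (edgeR adjusted p = 0.0451), which made 2 members called. In that fit 1903 of 16876 tested genes were called in all, where the fit of all 20 libraries called 1324 of 16727. Replicate 14 also had the lowest summed level of the 15 microglial markers, at 409.2 CPM, where the other 4 F2 stress-lineage libraries reached up to 857.4 and the F2 no-stress libraries ran from 536.6 to 672.3 CPM. It was also the lowest of the 20 libraries in striatal neuron markers (388 CPM, the others 925.3 to 5496 CPM) and in oligodendrocyte markers (1766 CPM, the others 2736 to 5729 CPM). The microglial covariate changed no call among the members. Ifit1 was not called in F2 with or without it, an outcome that cannot show the part of microglia in its values. The part of microglial, striatal and oligodendrocyte content in the Ifit1 values was not tested.

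Among the factors that transmit the interferon signal, Stat2 leaned the other way. Stat2 was at 20.4, 24.8, 25.7, 22.1 and 22.6 CPM in F2 stress-lineage mice, against 27.1, 29.3, 25.6, 26.0 and 28.6 CPM in F2 no-stress mice. Replicate 13 of the stress lineage and replicate 18 of the no-stress lineage were the only 2 mice out of order between the groups. The means were 23.1 ± 2.12 and 27.3 ± 1.59 CPM (SD, n = 5 each), and the log2 fold change of -0.24 ± 0.09 did not pass (edgeR adjusted p = 0.108). With the GC and length trends removed, Stat2 had -0.17 (edgeR adjusted p = 0.344). Irf9, its DNA-binding partner in ISGF3, had a log2 fold change of -0.09 ± 0.16, and Irf7, which drives the later wave of interferon gene transcription, one of 0.17 ± 0.29 (edgeR adjusted p of 0.767 and 0.760).

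The remaining effectors gave no call either. Oasl2, a member of the oligoadenylate synthetase family, had a log2 fold change of 0.32 ± 0.24 in F2 (edgeR adjusted p = 0.420). Bst2, also called tetherin, which holds budding virus particles at the cell surface, had 0.17 ± 0.37, and Isg15, a ubiquitin-like protein that is joined to other proteins, had 0.14 ± 0.43 (edgeR adjusted p of 0.819 and 0.875). For both the SE exceeded the estimate. Over the 9 members the median log2 fold change in F2 was 0.17, beside 0.001 over all tested genes. At an unadjusted p below 0.05 stood 3 members, Ifit2, Ifit3 and Stat2, where 25.6% of all tested genes did so. No member had groups that did not overlap in F2, where 4.62% of tested genes had.

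**Figure D3:**
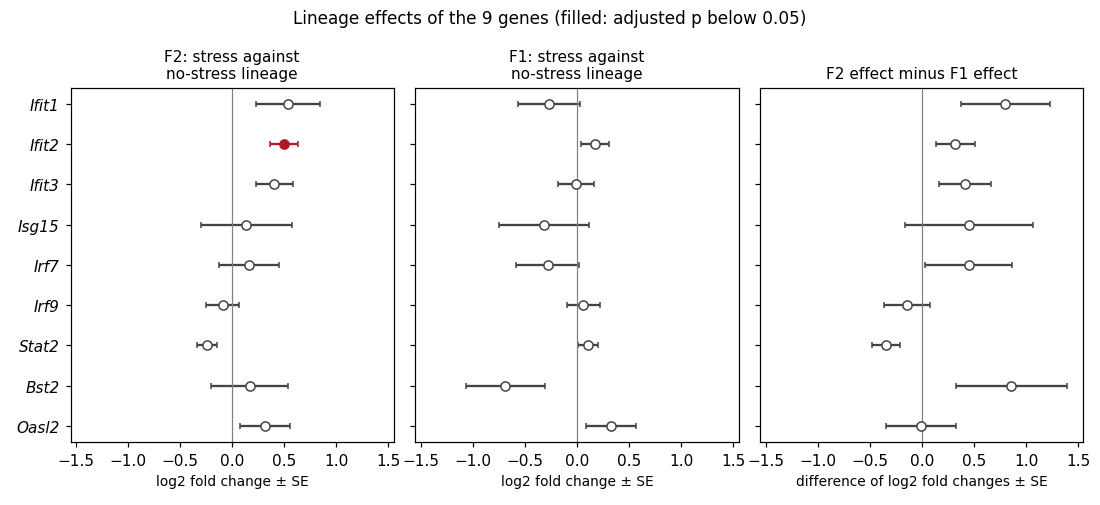
Log2 fold change ± SE of the 9 genes for stress against no-stress lineage in F2 and in F1, and the difference of these effects, with filled points for an edgeR adjusted p below 0.05. The 1 filled point is Ifit2 in F2, at 0.49 ± 0.13.

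In the F1 generation no member passed the test between the lineages. The edgeR adjusted p of the 9 members ran from 0.739 to 0.992, and 0 of 9 were called, as were 0% of all tested genes. None stood at an unadjusted p below 0.05, where 6.16% of all tested genes did, none had groups that did not overlap, where 1.24% did, and DESeq2 and limma-voom called none of the 9 either. Bst2 had the largest estimate, with 1.21, 0.639, 0.642, 1.07 and 0.800 CPM in F1 stress-lineage mice, against 1.43, 0.801, 2.11, 2.08 and 0.611 CPM in F1 no-stress mice. The highest values belonged to no-stress replicates 8 and 9 but the lowest to no-stress replicate 10, so the groups overlapped, and the log2 fold change was -0.69 ± 0.38. Isg15, Irf7 and Ifit1 had -0.31 ± 0.43, -0.28 ± 0.30 and -0.27 ± 0.30, and Ifit2 had 0.17 ± 0.13, at 8.16 ± 0.787 CPM in F1 stress-lineage mice and 7.23 ± 0.944 CPM in F1 no-stress mice (SD, n = 5 each). All 15 microglial markers were also lower in sign in F1 stress-lineage mice, with a median log2 fold change of -0.23 and 0 called. All 8 striatal neuron markers were lower in sign too, with a larger median change of -0.85 and 0 called. Of 10 mural and fibroblast markers 9 were higher in sign (median 0.22). Over all tested genes 51% were higher in sign. With microglial markers as a covariate the estimates were -0.38 for Bst2, 0.07 for Isg15, -0.06 for Irf7 and -0.03 for Ifit1. The summed microglial markers ran from 469.1 to 611.2 CPM in F1 stress and from 561.2 to 661.4 CPM in F1 no-stress libraries. The covariate thus partly follows the lineage and cannot separate the 2. The part of microglial, striatal and other cell content in the estimates was not tested. Without the covariate, Oasl2 (0.32 ± 0.24), Stat2 (0.10 ± 0.09), Irf9 (0.06 ± 0.16) and Ifit3 (-0.01 ± 0.17) made up the rest of the members.

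The lineage effects of F2 and F1 were not shown to differ for any member. In the test of the difference itself 0 of 9 members were called, beside 2.52% of all tested genes (0.837% with the F2 effect higher, 1.68% lower), and 1 of 9, Stat2, stood at an unadjusted p below 0.05, beside 21.2%. For Stat2 the F2 effect was lower than the F1 effect by a log2 difference of -0.34 ± 0.13 (edgeR adjusted p = 0.135). For Ifit2, the member called in F2, the difference was 0.32 ± 0.19 (edgeR adjusted p = 0.343), and for Ifit1 and Bst2 it was 0.80 ± 0.43 and 0.86 ± 0.53 (edgeR adjusted p of 0.290 and 0.372).

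Set against F1, the F2 mice of the stress lineage showed no call among the members (0 of 9, beside 0.012% of all tested genes), and edgeR adjusted p ran from 0.741 to 0.990. None stood at an unadjusted p below 0.05 there, beside 6.99%, none had groups that did not overlap, beside 0.777%, and DESeq2 and limma-voom called none. Within the no-stress lineage 0 of 9 were called, beside 2% of all tested genes (1.47% higher and 0.532% lower in F2), and 3 stood at an unadjusted p below 0.05, beside 20.2%. Stat2 was higher in F2, with 27.1, 29.3, 25.6, 26.0 and 28.6 CPM in F2 no-stress mice, against 21.9, 19.4, 23.2, 24.5 and 24.4 CPM in F1 no-stress mice. All 5 F2 mice lay above all 5 F1 mice, as 4.54% of tested genes had groups that did not overlap in this comparison, but the log2 fold change of 0.27 ± 0.09 did not pass (edgeR adjusted p = 0.114). Ifit3 and Ifit2 had -0.40 ± 0.18 and -0.30 ± 0.14 (edgeR adjusted p of 0.206 and 0.218). With the GC and length trends removed, Stat2, Ifit3 and Ifit2 had 0.20, -0.35 and -0.21 (edgeR adjusted p of 0.333, 0.369 and 0.497). Ifit2 averaged 5.88 ± 0.487 CPM in F2 no-stress mice and 7.23 ± 0.944 CPM in F1 no-stress mice, and 8.28 ± 1.62 and 8.16 ± 0.787 CPM in F2 and F1 stress-lineage mice (SD, n = 5 each). These F2 no-stress libraries also serve as the control of the F2 lineage comparison, so the Ifit2, Ifit3 and Stat2 values in both comparisons rest on the same 5 mice.

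Within groups, the members did not vary as 1 block. With the group means removed, the 36 pairs of members had a median Pearson r of 0.25 over the 20 libraries, and 26 were positive. After Benjamini-Hochberg adjustment over the 36 pairs 3 passed a two-sided permutation test of mice within groups (100000 permutations), all with positive r. No such test was run on pairs of other genes. Whether 3 of 36 is more than other genes would give is therefore not known. Irf9 and Stat2, the partners in ISGF3, had an r of 0.75 (permutation p = 0.00033, adjusted p = 0.0119) and a Spearman rho of 0.74 (permutation p = 0.0007, adjusted p = 0.0252). Without the 2 libraries farthest from the median of Irf9 their r was 0.76, and the pair passed in 18 of 20 analyses that left out 1 library, failing without F1 stress replicate 5 and without F1 no-stress replicate 7.

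The other passing pairs both held Irf7. Irf7 and Bst2 had an r of 0.77 and a rho of 0.74, and Ifit1 and Irf7 an r of 0.76 and a rho of 0.60. Both passed by r (permutation p of 0.00396 and 0.00361, adjusted p = 0.0475 for each) and neither passed by rho (permutation p of 0.00603 and 0.0195, adjusted p of 0.109 and 0.18). Leaving out the 2 farthest libraries gave an r of 0.71 for Irf7 and Bst2 and of 0.61 for Ifit1 and Irf7. With 1 library left out, they passed in 5 and in 6 of 20 analyses. A few mice carried the extreme values. Irf7 had 26, 24 and 24 counts in F2 stress replicates 11, 13 and 15, 24 in F1 no-stress replicate 8 and 9 in F2 stress replicate 14. Bst2 had 14, 24, 31, 28 and 9 counts in the same mice, and Ifit1 had 31, 44, 40, 46 and 10. High and low mice thus stood within 1 group, F2 stress, as well as between groups. The summed microglial markers were at 659.7, 656.0, 857.4, 561.2 and 409.2 CPM in these 5 mice, and the 12 endothelial markers at 329.8, 488.0, 480.9, 326.1 and 289.5 CPM. So replicate 14 was the lowest of the 5 in all 3 members and in both marker sums, while F1 no-stress replicate 8, the highest of all in Ifit1, was the lowest of its group in both. Their part in the correlations was not tested.

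**Figure D4:**
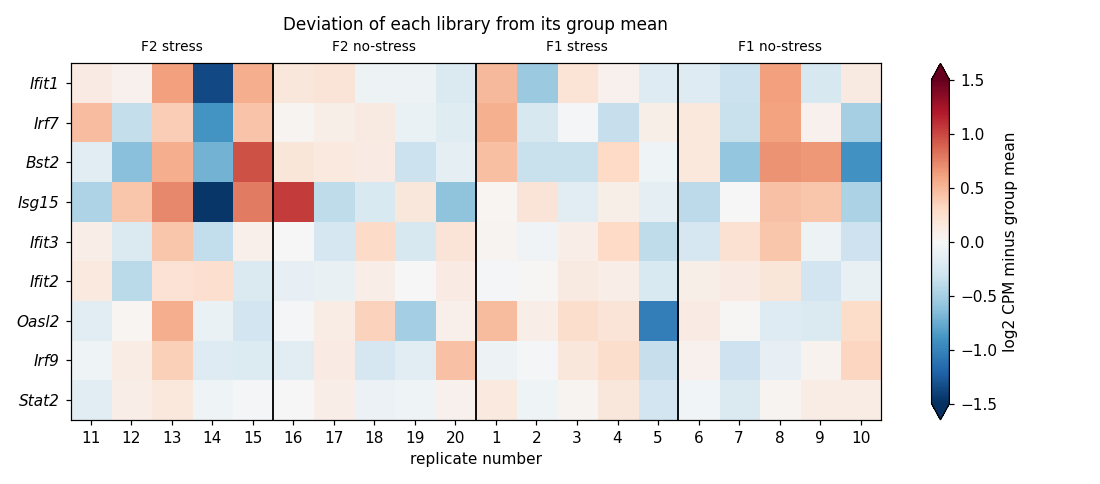
Log2 CPM of each gene in each library minus the mean of its group, for the 20 libraries by group. F2 stress replicate 14 is the lowest of its group in Ifit1, Irf7, Bst2, Isg15 and Ifit3 but not in Ifit2, Oasl2, Stat2 or Irf9, and replicates 13 and 15 are above their group mean in these 5.

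For Ifit2, the member called in F2, no pair passed. Its r was -0.16 with Ifit1, -0.07 with Bst2, -0.40 with Isg15 and 0.49 with Ifit3. With 1 library left out, r ran from -0.30 to 0.19 with Ifit1 and from -0.32 to 0.09 with Bst2, so these signs rest on single libraries, while it stayed between -0.56 and -0.24 with Isg15 and between 0.42 and 0.71 with Ifit3. In F2 stress replicate 14, where Ifit1, Isg15, Irf7 and Bst2 had 10, 2, 9 and 9 counts, Ifit2 had 138 counts, its highest of the 20 libraries. Oasl2 went with Stat2 (r = 0.63) and Irf9 (r = 0.55) more than with Bst2 (r = 0.01) or Irf7 (r = -0.01), though the first pairs did not pass and the differences between these correlations were not tested. Ranked by r among 15568 genes of at least 1 CPM or in the member list, Irf7 was the nearest of all to Bst2, Bst2 was the 2nd nearest to Irf7 and Ifit1 the 4th, and Irf9 was the 27th nearest to Stat2 and Stat2 the 52nd to Oasl2. In the other direction, Irf7 was the 30th nearest to Ifit1, Stat2 only the 298th to Irf9 and Oasl2 the 313th to Stat2. The gene nearest to Ifit1 was B2m (r = 0.85), the light chain of class I antigen-presenting molecules. The nearest to Ifit2 was Maoa (r = 0.83), which encodes monoamine oxidase A. These ranks are a description over 20 libraries that share depth, base composition and cell content.

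**Figure D5:**
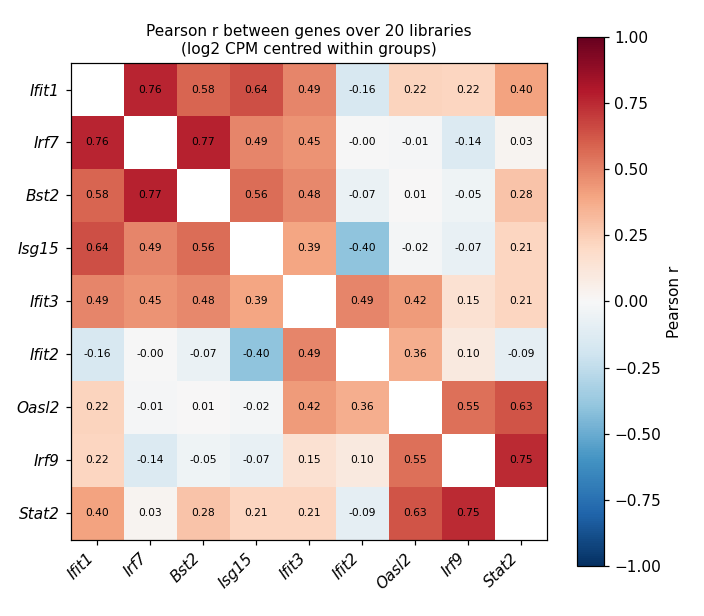
Pearson r for the 36 pairs of the 9 genes over 20 libraries, with group means removed. The 3 pairs that passed the test, Irf7 with Bst2, Ifit1 with Irf7 and Irf9 with Stat2, have r of 0.75 to 0.77, and Ifit3 has r of 0.39 to 0.49 with Ifit1, Ifit2, Irf7, Bst2, Isg15 and Oasl2.

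Across the 15560 other genes of at least 1 CPM, the mean r to the 9 members had a median of -0.0016 and a 95th percentile of 0.26. The 10 genes with the highest mean r were Trim30a (0.51), Il1rap (0.49), Ifit3b (0.47), Prom1 (0.47), Gbp9 (0.47), Trim21 (0.46), Tpm4 (0.45), Ipp (0.45), Shroom4 (0.45) and Lama3 (0.43). The lowest r of these 10 genes to a single member ran from -0.27 for Prom1 to 0.29 for Il1rap. Trim30a, Ifit3b, Gbp9 and Trim21 are themselves genes that interferons induce, and these 4 were in the list of 138 other interferon pathway genes examined. Ifit3b may share reads with Ifit3. Il1rap, Prom1, Tpm4, Ipp, Shroom4 and Lama3 were not in that list. Of the 16727 tested genes 108 were in it.

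The wider pathway was largely without calls. Of the 138 other listed genes 129 had a row and 108 were tested. In F2, 0 were called higher and 3 called lower, with a median log2 fold change of 0.06, and 60 of 108 were positive. Over all tested genes 2.64% were called higher and 5.28% lower, 50.2% were positive and the median was 0.001. Among the interferon genes themselves 3 of 12 had a row, Ifnb1, Ifnz and Ifne, each with 1 count over all 20 libraries, so none was tested. The 5 receptor genes tested gave no call, with log2 fold changes in F2 of -0.04 ± 0.06 for Ifnar1 and 0.04 ± 0.09 for Ifnar2. Jak1 was not called in F2 either, at 0.22 ± 0.07 (edgeR adjusted p = 0.0613).

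The called pathway genes were Tyk2, Irf3 and Rnaseh2c. Tyk2, the kinase on the Ifnar1 chain, averaged 10.4 ± 1.73 CPM in F2 stress-lineage mice and 16.8 ± 2.65 CPM in F2 no-stress mice (SD, n = 5 each), a log2 fold change of -0.69 ± 0.12 (edgeR adjusted p = 0.0070). Its F2 and F1 lineage effects also differed, by -0.82 ± 0.18 on the log2 scale (edgeR adjusted p = 0.0314), and it was higher in F2 than in F1 within the no-stress lineage (13.11 to 19.97 CPM in F2 and 10.02 to 11.84 CPM in F1, 5 mice each, log2 fold change 0.61 ± 0.12, edgeR adjusted p = 0.0265). Irf3, the factor that starts interferon transcription after nucleic acid sensing, averaged 9.14 ± 1.33 CPM in F2 stress-lineage mice and 13.2 ± 1.33 CPM in F2 no-stress mice (log2 fold change -0.53 ± 0.14, edgeR adjusted p = 0.0292). Rnaseh2c, a subunit of an enzyme that removes RNA from DNA hybrids and so limits self-sensing, averaged 2.004 ± 0.529 and 3.31 ± 0.509 CPM in the same groups (log2 fold change -0.72 ± 0.20, edgeR adjusted p = 0.0319). Their longest transcripts have 57.0, 56.7 and 58.1% GC, and with the GC and length trends removed none of the 3 was called, at -0.38 for Tyk2, -0.27 for Irf3 and -0.43 for Rnaseh2c (edgeR adjusted p of 0.135, 0.364 and 0.271). The Tyk2 difference of effects and its generation call were lost there too (edgeR adjusted p of 0.222 and 0.210). With only the groups compared in the fit, the F2 calls of Tyk2, Irf3 and Rnaseh2c (edgeR adjusted p of 0.0869, 0.0964 and 0.128) and the generation call of Tyk2 (0.0818) were also lost. Each overlaps a gene on the opposite strand (1700084C06Rik, Bcl2l12 and Kat5), so without the strand setting reads of the partner may be included. Tyk2 kept its F2 call whichever library was left out. Irf3 lost it without F2 stress replicates 11 or 12 or F2 no-stress replicates 16 or 17, and Rnaseh2c without any of these, F2 stress replicate 13 or F2 no-stress replicate 19. The Tyk2 difference of effects was no longer called without F1 stress replicates 2, 3 or 4, F1 no-stress replicates 7, 8 or 10, F2 stress replicates 11, 12 or 13, or F2 no-stress replicates 16 or 17, and its generation call without F1 no-stress replicates 7, 8 or 10 or F2 no-stress replicates 16 or 17. The number of pathway genes called in F2 was 1 without replicates 11, 12, 16 or 17, 5 without 15 or 20 and 7 without 14. Genes called in all were 241, 511, 421 and 358 without replicates 11, 12, 16 and 17. They were 2431 and 1655 without 15 and 20, and 1903 without 14, of 16830 to 16904 tested genes in these fits.

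These all-gene shares (7.92% called, 50.2% positive) are the background of the counts by role. By role, 0 of 37 tested effectors were called in F2, with 24 positive and a median log2 fold change of 0.19. Among them Rtp4 averaged 1.94 ± 0.302 CPM in F2 stress-lineage mice and 1.26 ± 0.283 CPM in F2 no-stress mice (log2 fold change 0.62 ± 0.22, edgeR adjusted p = 0.080). Rsad2, whose product viperin blocks viral replication, had 0.81 ± 0.30, and Mx2 had -0.86 ± 0.34 (edgeR adjusted p of 0.0948 and 0.119). Of the 13 guanylate-binding and immunity-related GTPase genes that interferon gamma induces 0 were called, with 11 positive and a median of 0.34, beside a median of 0.001 over all tested genes. The corresponding F1 medians were -0.10 for the effectors and -0.15 for the GTPase genes, beside 0.004 over all tested genes, with 0 called. Of 13 antigen presentation genes 0 were called in F2 (median -0.12), and of 14 sensors and adaptors 0 (median 0.03). Among these sensors and adaptors, Ifih1 had 0.49 ± 0.19, Tlr3 0.31 ± 0.14, Tlr9 -0.68 ± 0.28 and Ticam1 -0.41 ± 0.19. These were the 4 of smallest p in their role (edgeR adjusted p of 0.116, 0.157, 0.135 and 0.188). With the GC and length trends removed they had 0.37, 0.18, -0.42 and -0.14 (edgeR adjusted p of 0.348, 0.506, 0.491 and 0.760). Of 4 genes that attach Isg15 or remove it 0 were called, Uba7 having -0.44 ± 0.16 and Usp18 0.09 ± 0.35 (edgeR adjusted p of 0.0898 and 0.898). With the GC and length trends removed they had -0.25 and 0.09 (edgeR adjusted p of 0.491 and 0.935).

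Over the whole series, markers of amygdala neurons, glia, vessels and striatal neurons were present. All 12 amygdala neuron markers were detected, with summed levels of 619.2 to 1020 CPM. The 8 striatal neuron markers, of a region that borders the amygdala, summed to 388 to 5496 CPM and exceeded the amygdala sum in 19 of 20 libraries. Of the other lists, 7 of 8 lymphocyte markers (all but Cd4) and the blood myeloid markers Plac8, S100a8 and S100a9 stayed under 0.2 CPM on average. Microglial sums ran from 409.2 to 857.4 CPM in F2 stress, 536.6 to 672.3 in F2 no-stress, 469.1 to 611.2 in F1 stress and 561.2 to 661.4 in F1 no-stress libraries. Of 12 endothelial markers 3 were called lower and 0 higher in the F2 stress lineage, beside 5.28% and 2.64% of all tested genes. With the GC and length trends removed 0 were called, when 8 genes were called in all. By sign 6 of the 12 were positive and 6 negative, with a median log2 fold change of -0.015. Their median sum was 422.8 CPM in F2 stress and 411.6 CPM in F2 no-stress libraries.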

How the data were processed

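Poly-A RNA of bilateral 1.2 mm amygdala punches was sequenced with a stranded kit, per the labels. STAR 2.5.3a and GRCm38 stand in the submitters' processing notes. For the counter, its annotation, its strand setting and its handling of multi-mapping reads, nothing is given in the sources used here. The authors deposited unnormalized counts, 1 whole number for each Ensembl gene in each mouse, as the file shows. Their totals had been levelled by an undescribed step, so the depth before it is unknown. No label names a batch or litter, and replicate numbers are unique. If mice share litters, p-values rest on fewer independent animals.

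The test was edgeR 4.0.16 (R 4.3.3) quasi-likelihood, robust, with TMM factors of 0.956 to 1.042, filterByExpr and 1 mean per group over all 20 libraries. P-values were adjusted over 16727 genes and called below 0.05. CPM use TMM library sizes, and log2 CPM for correlations a prior count of 2. SE is the fold change over the root of F. Alternatives used DESeq2 1.42.0, limma 3.58.1, sva 3.50.0, other scalings and filters, and an offset for GC content and length (splines with 5 degrees of freedom, GENCODE M21, known for 99.79% of tested genes). Only the main edgeR fit was tested on simulated counts, with the same dispersion for every gene and no GC trend. The alternatives were not tested in that way. Members and lists were chosen with earlier results of these data known. The text names all members, the pathway genes called, some of those among the 4 smallest p per role in F2, and the 10 genes most alike. Figures were drawn with matplotlib 3.10.9.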

Additional observations from a re-analysis of the deposited data

How the results depend on the processing

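No paired analysis was possible because each mouse has its own replicate number. Counts of 2 to 46 per library limit Isg15, Irf7, Bst2 and Ifit1. The number of members called in F2 (1) stayed 1 under 9 other settings, with Ifit2 adjusted p of 0.0092 to 0.0426, and was 0 with no low-count filter (Ifit2 0.50, adjusted p = 0.0557), with only the groups compared in the fit (0.50, 0.125) and with the GC and length offset (0.36, 0.201). It was 0 to 2 with 1 library left out, and Ifit2 then ranged from 0.43 to 0.59. In the other comparisons 0 members were called under every setting. Of the pathway genes named, Tyk2, Irf3 and Rnaseh2c also lost the F2 call with only the groups compared (0 called), Rnaseh2c also with no filter, and 6, 8 and 7 were called by DESeq2, voom with library weights and 1 surrogate variable. Passing pairs were 5 without centring, 1 with library totals and 0 to 5 with 1 library left out.

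Genes called in all in F2 were 1324, but 737 with no filter, 2054 by DESeq2, 2581 by voom with weights, 2204 with 1 surrogate variable, 0 with only the groups compared, 8 with the offset and 241 to 2431 with 1 library left out. For the difference of effects they were 421, but 100, 1240 and 2449 with no filter, DESeq2 and weights, 0 with the offset and 0 to 1501 with 1 library left out. For F2 against F1 without stress they were 335, but 208 with library totals, 61, 1028 and 1003 with no filter, DESeq2 and weights, 649 and 719 with the surrogate and microglial covariates, 0 with only the groups or the offset and 0 to 725 with 1 library left out. In F1 they were 0 to 3 and for F2 against F1 with stress 0 to 10.

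Signs turned for uncalled log2 fold changes, and the cause was not tested. In F1, Ifit3 was 0.028 with library totals, 0.0025 by voom, 0.035 and 0.078 with the surrogate and microglial covariates and 0.027 with the offset, Ifit1 was 0.031 with the surrogate, and Isg15 was 0.17 and 0.073 with these covariates. In F2, Isg15 was -0.016 by voom and Irf9 was 0.079 with weights. The difference of effects for Oasl2 was 0.0025 with no filter, 0.065 by voom, 0.18 with weights and 0.027 with the microglial covariate. In F2 against F1 with stress, Isg15 was -0.12, -0.10 and -0.17 by voom, surrogate and microglial covariate, Ifit2 was -0.015 with weights and -0.012 with the offset, Ifit3 was -0.0053, -0.053 and -0.047 with surrogate, microglial covariate and offset, and Ifit1 was -0.00098 with the microglial covariate. Without stress, Oasl2 was -0.068 with weights and Irf7 -0.12 with the offset. With 1 library left out, the ranges that spanned 0 were, in F1, Ifit3 -0.091 to 0.11 and Irf9 -0.022 to 0.15, and in F2, Bst2 -0.16 to 0.34, Irf9 -0.19 to 0.041 and Isg15 -0.083 to 0.58. For the difference of effects Oasl2 ran from -0.20 to 0.11. For F2 against F1 with stress they were Ifit2 -0.041 to 0.11, Ifit3 -0.11 to 0.098, Isg15 -0.030 to 0.46 and Oasl2 -0.16 to 0.15, and without stress Irf7 -0.050 to 0.27 and Oasl2 -0.057 to 0.15.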
